A study of Oryza sativa Japonica Group with 8 samples.

Results

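Rubisco is the enzyme that fixes CO2 in the Calvin cycle of the chloroplast. It is built of large subunits, encoded in the chloroplast genome, and small subunits, encoded in the nucleus by the RBCS gene family. Rubisco activase, the product of RCA, is an ATPase that frees the active sites of bound sugar phosphates, so that the enzyme can turn over. RBCS and RCA transcripts are among the most abundant messages of green leaves and depend on light.

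The genes described are the small subunit copies of rice on chromosome 12 (LOC_Os12g17600, LOC_Os12g19381, LOC_Os12g19394 and LOC_Os12g19470) and the activase gene RCA (LOC_Os11g47970) on chromosome 11, 5 genes chosen by identifier. Of these 5, 4 have a row among the 55801 genes of the tables used. LOC_Os12g19394 has none and is not analysed here, so sums and shares cover 3 copies. The count table holds genes of the 12 nuclear chromosomes, and the large subunit is not analysed here.

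Leaf RNA was sequenced from seedlings of the Japonica cultivar Nipponbare in 2 groups. CD seedlings grew from seed on 1/2 MS, a mineral salt medium, with carbon dots (carbon nanoparticles) at 0.56 mg/ml, and CK seedlings on the same medium without them. The labels give an age of 2 weeks and the protocol 3 weeks of growth. Each group has 2 libraries, and the count totals were 74853055 (replicate 1) and 49281927 (replicate 2) for CD, and 80317398 (replicate 1) and 60763633 (replicate 2) for CK. Nothing in the labels ties the replicates of a group to separate plants, so a p-value here measures the spread between libraries, which may be technical.

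The label of leaf tissue was set against marker lists. The 4 leaf markers summed to 1391 and 2479 CPM (counts scaled to library size with TMM factors) in the CD libraries, against 5168 and 3345 CPM in the CK libraries. The 4 root markers summed to 30.5 and 37.8 CPM in CD, against 41.0 and 53.0 CPM in CK, and 1 of them, the silicon transporter gene LSI2, had no count in any library. The first principal component, with 46.6% of the variance, placed CD replicate 1 at -76.4, away from the other libraries (CD replicate 2 at 2.29, CK libraries at 51.3 and 22.8). Values without each library are therefore given beside the results that move. Fewer photosynthetic cells and less of a transcript per cell cannot be told apart in bulk leaf RNA.

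The gene models set what a value of each copy means. Coordinates are those of the count table, whose genome build is not given in the sources used here. LOC_Os12g17600 lies on the minus strand of chromosome 12 from 10080398 to 10081661, with 1161 bases of exon in 2 blocks. LOC_Os12g19381 starts 1.18 Mb further on, on the plus strand, and runs from 11262563 to 11278448. Its first 2 exons are 238 and 237 bases long, and its last, of 689 bases, follows after a gap of 14.6 kb. LOC_Os12g19470 lies 41.8 kb beyond it on the plus strand, from 11320267 to 11322547. Its listed exons merge into 1 block of 2281 bases, 1.96 times the exon length of LOC_Os12g17600, because an exon of the model covers the gap between others. RCA lies on the minus strand of chromosome 11 from 28934294 to 28936340, with 1401 bases in 6 exons.

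**Figure D1:**
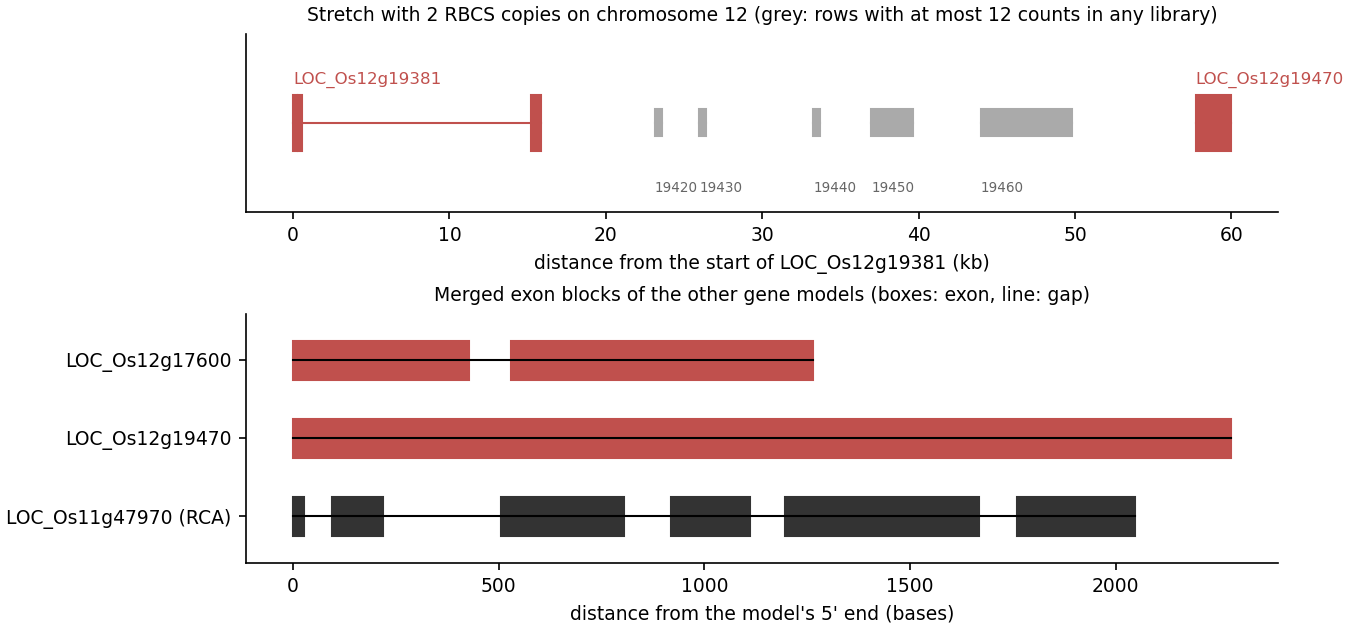
Gene models of the count table. The upper map shows the stretch with LOC_Os12g19381 and LOC_Os12g19470 by distance in kb, with exon blocks as red boxes and the 5 rows between them in grey (at most 12 counts in any library). The lower map shows the merged exon blocks of LOC_Os12g17600, LOC_Os12g19470 and RCA by distance from the 5′ end in bases, where LOC_Os12g19470 is a single block of 2281 bases.

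The 5 rows between LOC_Os12g19381 and LOC_Os12g19470 were nearly silent. LOC_Os12g19420 had 12 and 5 counts in the CD libraries and 11 and 6 in the CK libraries. LOC_Os12g19430 had none, and LOC_Os12g19440, LOC_Os12g19450 and LOC_Os12g19460 had 1 count each, all in CK replicate 2. LOC_Os12g19470 beside them had 71245 and 43652 counts in CD and 152894 and 145367 in CK. How the counting treated reads that fit more than 1 near-identical copy is not known, and the long models could take in reads of other transcripts, so levels of single copies are uncertain to that extent.

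All 3 measured small subunit copies had lower values in the carbon dot libraries, and RCA did not separate the groups. Levels are in TPM, the authors' values per length of gene model, which add up to the same total in every library. The small subunit copies together held 0.808% and 0.608% of all TPM in CD replicates 1 and 2, against 1.42% and 2.41% in CK replicates 1 and 2. Summed, they averaged 7082 ± 1416 TPM in CD and 19145 ± 7018 TPM in CK (SD, n = 2 each), a log2 ratio of means of -1.43. The sum covers genes that were chosen together, and no test was made of it. It lay at -1.0 without CK replicate 2 and at -1.77 without CK replicate 1.

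LOC_Os12g19381, the copy with the distant last exon, had 4011 and 3411 TPM in the CD libraries and 7565 and 10062 TPM in the CK libraries. The higher CD library was still below the lower CK library, and the CD replicates were within 1.18-fold of each other. Its log2 fold change by edgeR, CD minus CK, was -1.37 ± 0.30 (SE), with an adjusted p, taken over all genes, of 0.46 by edgeR and 8.01e-05 by DESeq2. Leaving out 1 library gave -1.14 to -1.55.

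LOC_Os12g19470, the copy with the long single block, had 760 and 713 TPM in CD and 1505 and 1904 TPM in CK. Here too the groups did not overlap, and the CD libraries were nearly level, within 1.07-fold. Its log2 fold change was -1.33 ± 0.24 (SE), with an adjusted p of 0.46 by edgeR and 1.58e-05 by DESeq2. Without 1 library it lay between -1.15 and -1.48.

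LOC_Os12g17600, the copy that stands apart on the chromosome, had 3312 and 1956 TPM in CD and 5113 and 12143 TPM in CK. Again the groups did not overlap, but the replicates differed, by 1.69-fold within CD and by 2.37-fold within CK. CK replicate 2 was far above the other 3 libraries. The log2 fold change was -1.84 ± 0.53 (SE), with an adjusted p of 0.476 by edgeR and 0.00879 by DESeq2. It was -1.07 without CK replicate 2 and -2.32 with CK replicate 1 left out instead. Leaving out a CD library gave -2.24 (replicate 1) and -1.52 (replicate 2).

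RCA, the activase gene, had 13574 and 6350 TPM in CD and 12052 and 16375 TPM in CK. CD replicate 1 lay above CK replicate 1, so the groups overlapped, and the CD replicates differed by 2.14-fold. The log2 fold change was -0.64 ± 0.47 (SE), with an adjusted p of 0.802 by edgeR and 0.773 by DESeq2. It moved with the CD libraries, to -1.26 when replicate 1 was left out and to -0.20 when replicate 2 was. Leaving out a CK library gave -0.84 (replicate 1) and -0.39 (replicate 2).

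**Figure D2:**
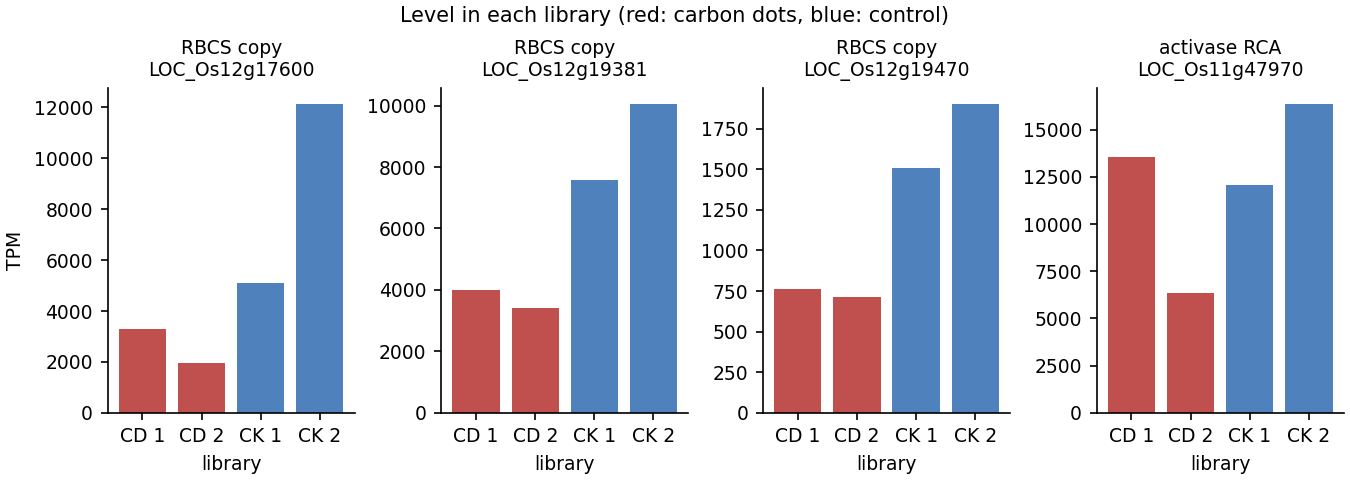
Level of each small subunit copy and of RCA in each library, in TPM on linear axes that start at 0 and differ between panels. Red bars are the 2 CD libraries and blue bars the 2 CK libraries. For each RBCS copy both red bars are below both blue bars, while for RCA the bar of CD replicate 1 (13574 TPM) is above that of CK replicate 1 (12052 TPM).

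These values stand against what other genes did. Over all 26271 genes tested, edgeR called 0 at an adjusted p of 0.05 (0.0% of genes), with 2286 at an unadjusted p under 0.05 (8.7%), and limma-voom called 0. DESeq2 called 303 genes lower (1.18% of the 25761 genes with an adjusted p), among them all 3 measured RBCS copies and not RCA. The 3 copies also had an unadjusted edgeR p under 0.05 and a lower value (0.0172 for LOC_Os12g17600, 0.00544 for LOC_Os12g19381 and 0.00253 for LOC_Os12g19470), as had 5.37% of genes. Groups that did not overlap, with both CD libraries lower, were found for all 3 copies and for 20.7% of genes. The median log2 fold change was -1.37 over the 3 copies and 0.01 over all genes tested. The 3 copies belong to 1 family and could share reads, so they are not independent observations.

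In rank, RCA had the highest TPM of all genes in each of the 4 libraries. LOC_Os12g19381 ranked 5 in both CD libraries, and 2 and 3 in the CK libraries. LOC_Os12g17600 ranked 8 and 23 in CD, and 5 and 2 in CK. LOC_Os12g19470 ranked 85 and 102 in CD, and 33 and 22 in CK. So each RBCS copy stood lower in the order of CD libraries than of CK libraries, and RCA kept its place. The 55 genes with a mean of at least 1000 CPM over the 4 libraries include the 3 copies and RCA. LOC_Os12g19470 averaged 886 CPM in CD and 2229 CPM in CK, so it entered this set only through its CK libraries. Its place among these genes is therefore a description and no support for a difference. None of them had a lower log2 fold change than LOC_Os12g17600. Only LOC_Os12g17600 was lower than LOC_Os12g19381, and only these 2 copies were lower than LOC_Os12g19470. For RCA 13 were lower, the 3 copies among them. The median of these 55 genes was -0.24.

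The ratio of activase to small subunit transcripts does not depend on the depth or scaling of a library. RCA TPM was 1.68 and 1.04 times the summed RBCS TPM in CD replicates 1 and 2, against 0.85 and 0.679 times in CK replicates 1 and 2. RCA TPM thus exceeded the summed TPM of the 3 measured copies in both CD libraries and was below it in both CK libraries. In CD replicate 2 the values were close, at 6350 TPM for RCA and 6081 TPM for the sum. The sum depends on the lengths of the gene models and leaves out LOC_Os12g19394. Which of the transcripts was the more abundant in a library is therefore not settled by these values. The log2 ratio averaged 0.41 ± 0.48 in CD and -0.40 ± 0.23 in CK (SD, n = 2 each), a difference of 0.80. The two-sided exact permutation test gave p = 0.333, the smallest that 2 libraries against 2 allow. It came to 0.46 when CD replicate 1 was left out and to 1.14 when CD replicate 2 was. Counts without length scaling gave 0.78, and leaving out LOC_Os12g19381, with its distant exon, gave 0.95. The counts of LOC_Os12g19394 are not known here. Whether the model of LOC_Os12g19381, with its distant last exon, takes in reads of that copy was not tested, and this bears on the ratio and on the level and share of LOC_Os12g19381.

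The mix of the 3 copies did not separate the groups. LOC_Os12g17600 made up 41.0% and 32.2% of the summed RBCS TPM in the CD libraries, against 36.0% and 50.4% in the CK libraries. LOC_Os12g19381 made up 49.6% and 56.1% in CD, against 53.3% and 41.7% in CK. LOC_Os12g19470 made up 9.40% and 11.7% in CD, against 10.6% and 7.90% in CK. For each copy the CD and CK values overlapped, and CK replicate 2 was the library at the edge of the range, highest for LOC_Os12g17600 and lowest for the others. The differences of the mean shares, CD minus CK, were -6.63, 5.32 and 1.31 percentage points for LOC_Os12g17600, LOC_Os12g19381 and LOC_Os12g19470, each with p = 0.667 by the two-sided exact permutation test (2 libraries against 2). Without CK replicate 2 they turned to 0.53, -0.48 and -0.05 percentage points.

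The scale decides how large LOC_Os12g19470 appears. By counts without length scaling it made up 16.9% and 20.7% of the RBCS reads in CD, against 18.9% and 14.4% in CK, since its long model divides its TPM. The 95% Wilson interval of any count share was within 0.213 percentage points, which covers counting error only. By either scale LOC_Os12g19470 was the lowest of the 3 copies in every library, and LOC_Os12g17600 and LOC_Os12g19381 changed places only in CK replicate 2.

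**Figure D3:**
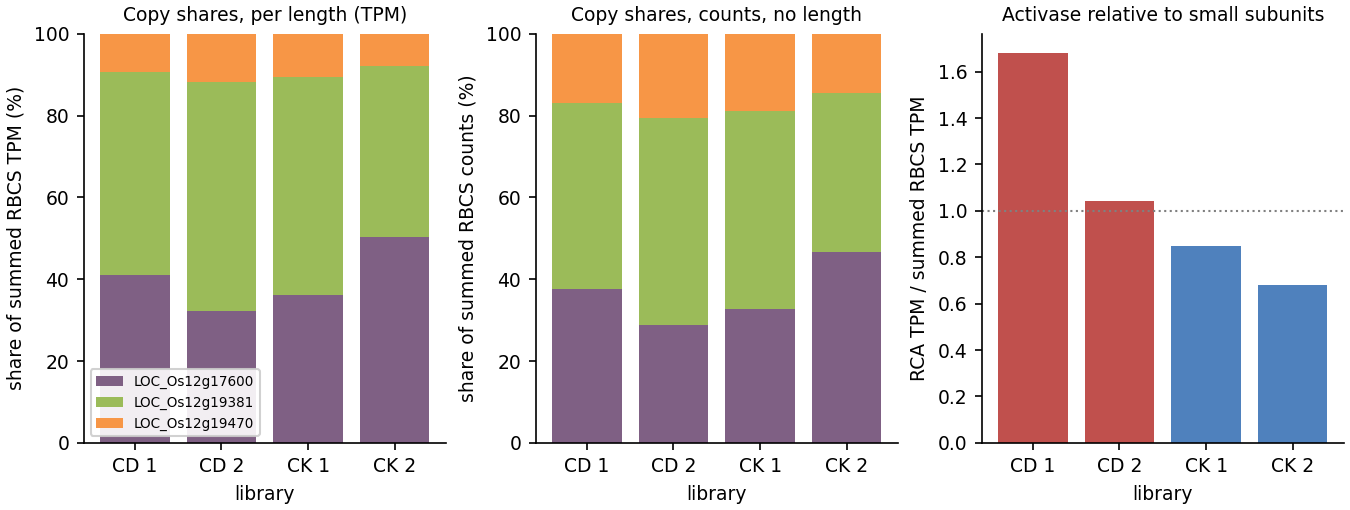
Stacked bars give the share of each copy in the summed RBCS signal of each library in percent, by TPM (left) and by counts without length scaling (middle). The right panel gives RCA TPM over summed RBCS TPM, with red bars for CD and blue bars for CK and a dotted line at 1. The copy shares overlap between groups, while both CD bars of the activase ratio (1.68 and 1.04) are above both CK bars (0.85 and 0.679).

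The neighbours LOC_Os12g19381 and LOC_Os12g19470 kept nearly the same ratio in every library. LOC_Os12g19381 had 2.69 and 2.44 times the counts of LOC_Os12g19470 in CD replicates 1 and 2, against 2.56 and 2.70 times in CK replicates 1 and 2. LOC_Os12g17600 had 0.824 and 0.572 times the counts of LOC_Os12g19381 in CD, against 0.674 and 1.20 times in CK. So the ratio that involves the distant copy varied about as much within a group as between groups, and the ratio of the neighbours varied little in either. Whether reads shared between copies take part in this was not tested.

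The patterns over the 4 libraries were compared as log2 CPM minus the mean of the libraries. The mean of the 3 copies lay at -0.57 and -0.90 in CD replicates 1 and 2, and at 0.40 and 1.07 in CK replicates 1 and 2. RCA lay at 0.17 and -0.89 in CD, and at 0.14 and 0.58 in CK. CD replicate 2 and CK replicate 2 were the lowest and the highest library for both, and they parted in CD replicate 1. The root mean square distance from the RBCS mean was 0.117 for LOC_Os12g19381, 0.169 for LOC_Os12g19470, 0.284 for LOC_Os12g17600 and 0.467 for RCA (log2 units over 4 libraries). Each copy is a part of that mean, which lowers its distance, and RCA is not, so the distances are not on equal terms.

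Of 26107 other genes with a count in each library, 115 were nearer to the RBCS mean than LOC_Os12g17600, itself a part of that mean, was. The 5 nearest genes have no name in the sources used here. The first were LOC_Os08g38100, at a distance of 0.061, and LOC_Os01g67314, at 0.087. Both were low, at 0.177 and 0.159 CPM in CD and 0.373 and 0.599 CPM in CK for LOC_Os08g38100, and at 0.545 and 0.458 CPM in CD and 1.03 and 1.52 CPM in CK for LOC_Os01g67314. The nearest to RCA were LOC_Os07g34830, at 0.029, and LOC_Os11g44930, at 0.038. Both were far below RCA in level. LOC_Os07g34830 had 4.84 and 2.27 CPM in CD, against 4.65 and 6.08 CPM in CK. LOC_Os11g44930 had 0.482 and 0.219 CPM in CD, against 0.476 and 0.617 CPM in CK. Next came LOC_Os07g05820, at 0.051, and LOC_Os03g57220, at 0.054, which were well counted though also below RCA. LOC_Os07g05820 had 561 and 251 CPM in CD, against 532 and 681 CPM in CK. LOC_Os03g57220 had 526 and 280 CPM in CD, against 547 and 746 CPM in CK. Within a distance of 0.1 lay 5 genes for the RBCS mean and 28 for RCA.

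Other genes of the Calvin cycle were described from a list of 13 entered by identifier, of which 3 could be matched to a name in the reference table. Of the 13, 12 had a log2 fold change below 0, as had 49.0% of all genes tested, and the median was -0.92 in a range of -1.34 to 0.30. In those 12 the groups did not overlap, with CD lower (20.7% of genes). In the remaining entry CD was higher without overlap (17.8% of genes). edgeR called 0 of the 13 (0.0% of genes), with 10 lower at an unadjusted p under 0.05 (5.37% of genes), and DESeq2 called 7 lower (1.18% of genes). The median was -1.17 without CD replicate 1. The median distance of the 13 from the RBCS mean was 0.324, against 0.816 for all genes, and 3 were nearer to it than LOC_Os12g17600.

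ALDP (LOC_Os11g07020), the plastid aldolase that joins triose phosphates, had 4682 and 2797 CPM in CD, against 6055 and 7628 CPM in CK. Its log2 fold change was -0.87 ± 0.37 (SE), with an adjusted p of 0.59 by edgeR and 0.215 by DESeq2. Leaving out a CD library gave -1.29 (replicate 1) and -0.55 (replicate 2). FBPase (LOC_Os03g16050), which removes a phosphate from fructose bisphosphate on the way to regenerating the CO2 acceptor, had 174 and 121 CPM in CD, against 274 and 298 CPM in CK. Its log2 fold change was -0.95 ± 0.23, with an adjusted p of 0.46 by edgeR and 0.0411 by DESeq2. RPE (LOC_Os03g07300), an epimerase of ribulose phosphate in the same regeneration, had 346 and 265 CPM in CD, against 457 and 528 CPM in CK (log2 fold change -0.69 ± 0.22, adjusted p of 0.51 by edgeR and 0.192 by DESeq2). In all 3 the groups did not overlap and CD replicate 2 was the lowest library, as it was for the RBCS mean. Over the whole list of 13, CD replicate 2 was the lowest library for 8 genes, CD replicate 1 for 4 and CK replicate 2 for 1.

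Plastid chaperonins help to fold Rubisco subunits. Of 4 genes entered as chaperonins or co-chaperonins, none could be matched to a name. A log2 fold change below 0 was found for 3 of them (49.0% of all genes tested), and the median was -0.59. edgeR called 0 of them (0.0% of genes) and DESeq2 called 0 (1.18% of genes lower and 0.772% higher). At an unadjusted edgeR p under 0.05 there were 0 (8.7% of genes). The median ranged between -0.29 and -0.89 when 1 library was left out. LOC_Os02g05830 on chromosome 2 (2874934 to 2876452), entered as a further small subunit gene but without a record in the reference table, lay on the other side. It had 39.5 and 33.5 CPM in CD, against 23.4 and 19.8 CPM in CK, far below the chromosome 12 copies. Its log2 fold change was 0.75 ± 0.18 (SE), with an adjusted p of 0.46 by edgeR and 0.0821 by DESeq2, which called 0.772% of genes higher. The unadjusted edgeR p was 0.00774, and 3.33% of genes had one under 0.05 with a higher value. Both CD libraries lay above both CK libraries, as for 17.8% of genes.

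The 4 leaf markers of the light reactions had their lowest value in CD replicate 1, where the RBCS mean had its lowest in CD replicate 2. CAB2R, an antenna protein gene, had 225 and 831 CPM in CD replicates 1 and 2, against 1749 and 609 CPM in CK replicates 1 and 2, so CD replicate 2 lay above CK replicate 2. CAB1R, another antenna gene, had 73.6 and 347 CPM in CD, against 818 and 273 CPM in CK. The other 2 leaf entries, without a record in the reference table, did not overlap between the groups, with CD lower (20.7% of genes). One had 972 and 1114 CPM in CD, against 2062 and 1966 CPM in CK, and the other had 120 and 188 CPM in CD, against 539 and 496 CPM in CK. DESeq2 called these 2 lower (1.18% of genes) and edgeR called 0 of the 4 (0.0% of genes). The same 2 were lower at an unadjusted edgeR p under 0.05 (5.37% of genes). The distances from the RBCS mean were 0.413 and 0.467 for them, 1.11 for CAB2R and 1.21 for CAB1R, against 0.816 for the median gene. The median log2 fold change of the 4 leaf markers was -1.27, and each was below 0 (49.0% of genes). The 3 secondary wall genes summed to 640 and 1321 CPM in CD, against 1125 and 738 CPM in CK. The 3 markers of meristem and dividing cells summed to 23.4 and 21.5 CPM in CD, against 23.4 and 23.6 CPM in CK, nearly all of it PCNA (23.3 and 21.3 CPM in CD, against 20.7 and 22.0 CPM in CK). The other 2 entries of that list, without a record, were low but did not overlap between the groups, with CD lower (20.7% of genes). One had no count in either CD library, against 1.51 and 0.719 CPM in CK, and DESeq2 called it lower (1.18% of genes). The other had 0.127 and 0.279 CPM in CD, against 1.15 and 0.925 CPM in CK, with an adjusted p of 0.0524 by DESeq2. The 2 genes of chlorophyll breakdown summed to 178 and 148 CPM in CD, against 177 and 163 CPM in CK. The leaf and meristem lists thus held genes that were lower in CD beside the RBCS copies, and the part of tissue composition in the RBCS values was not tested.

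**Figure D4:**
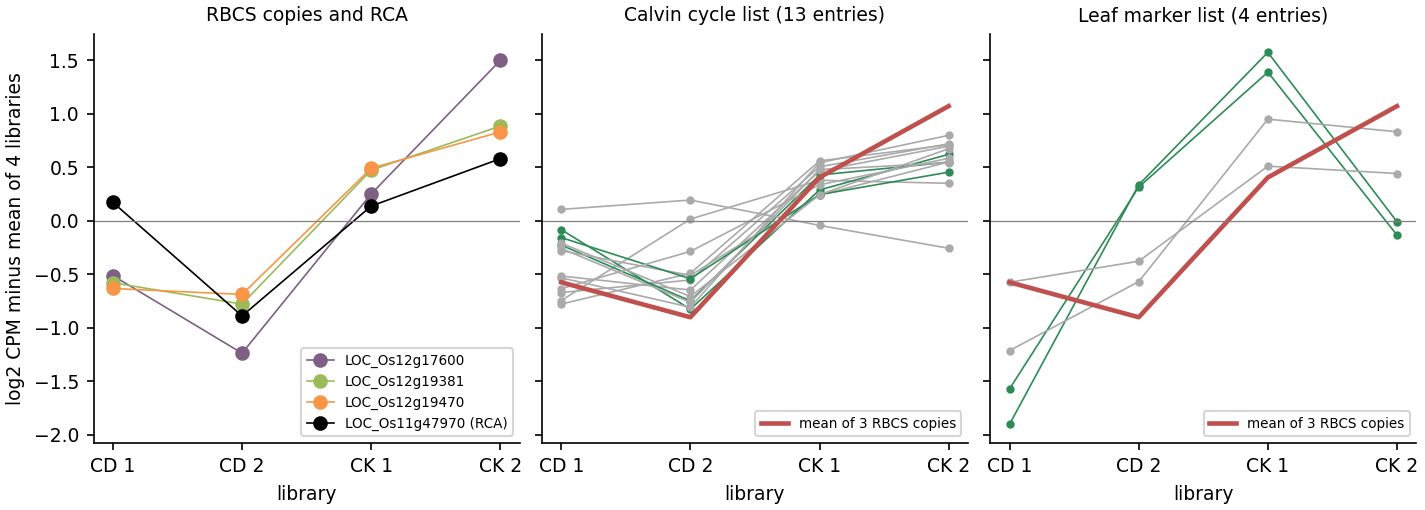
Log2 CPM minus the mean of the 4 libraries (lines join the values of 1 gene and imply no order). The left panel shows the 3 RBCS copies and RCA, the middle the 13 entries of the Calvin cycle list and the right the 4 leaf markers, with named genes in green, unnamed entries in grey and the mean of the RBCS copies in red. RCA parts from the RBCS copies in CD replicate 1 (0.17 against a mean of -0.57), and the 2 antenna genes in green have their highest value in CK replicate 1, with CD replicate 2 above CK replicate 2.

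The direction of the fold change held for the 3 RBCS copies and for RCA under each of the 14 alternatives run. DESeq2 alone moved any of the 4 past an adjusted p of 0.05. Scaling by total counts shifted the median of all genes by 0.10 on the log2 scale and gave -1.72 for LOC_Os12g17600, -1.26 for LOC_Os12g19381, -1.23 for LOC_Os12g19470 and -0.53 for RCA.

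**Figure D5:**
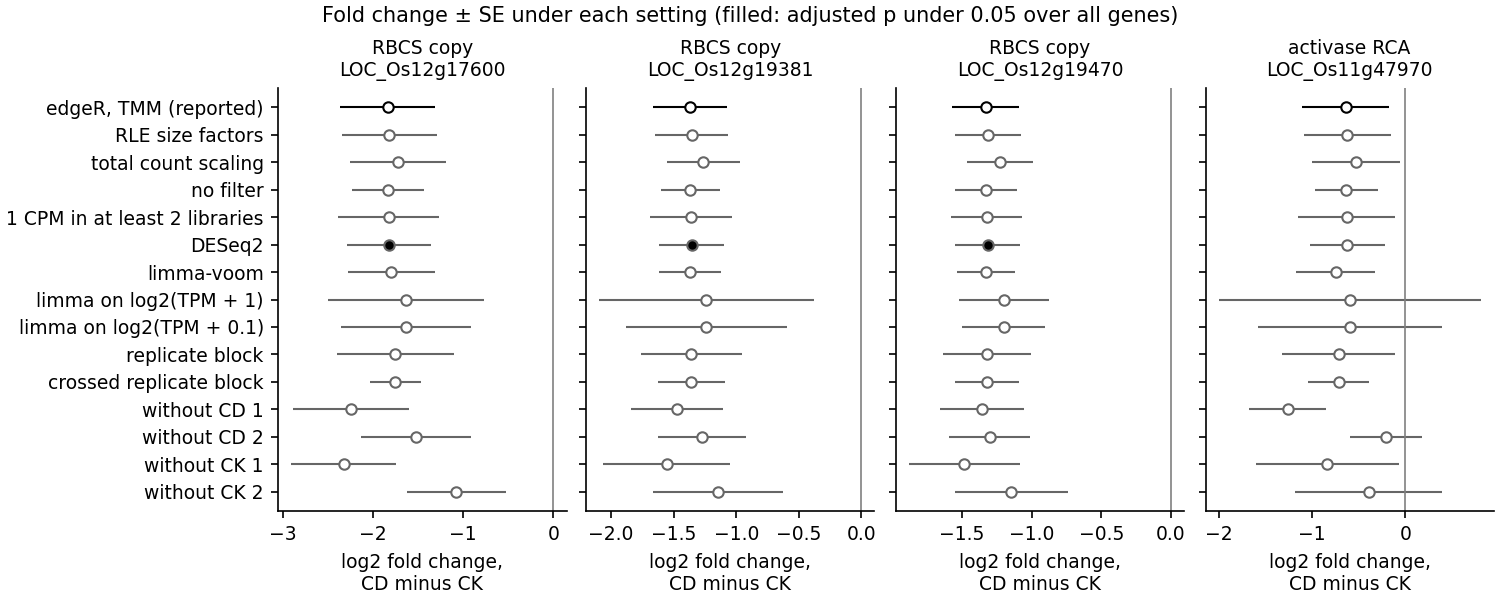
Log2 fold change, CD minus CK, with its standard error for each RBCS copy and RCA under the reported fit and 14 alternatives, in order down the page. Filled points have an adjusted p under 0.05 over all genes, which only the DESeq2 fit of the 3 RBCS copies gave, and every point lies below 0.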

How the data were processed

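The authors' table of read counts has the layout of featureCounts output, per the file headers, and was not normalized. Their deposited TPM equal the counts over gene length, rescaled per library, within 1e-05. The submitters' processing notes name featureCounts 1.6.4, HISAT2 2.0.5 and fastp 0.21.0, but not in what order they ran. The build and the strand setting are not given in these sources.

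All genes that passed filterByExpr (26271) were fitted with edgeR 4.0.16 in R 4.3.3, CD over CK, with TMM factors and the quasi-likelihood test, and p-values were adjusted by Benjamini-Hochberg (threshold 0.05). A standard error is the log2 fold change divided by the root of its F statistic. Shares and ratios used TPM and the two-sided exact permutation test. The alternatives were other tools (DESeq2 1.42.0, limma 3.58.1 with voom, and limma with trend on TPM after log2 with a pseudocount of 1 or of 0.1), other scalings (RLE, total counts, counts without length), other filters (none, or at least 1 CPM in 2 libraries), a replicate block, and each library left out. A crossed replicate block and sums without LOC_Os12g19381 were added after seeing the data. Each library held 49281927 to 80317398 counts, which bears on counting error only and not on the spread between libraries.

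The genes and lists were chosen with earlier results of these data known. Named genes were the measured members, LOC_Os02g05830, list genes matched in the reference table, the rows between the neighbouring copies, and the genes nearest in pattern. The reference table is of assembly ASM3414082v1, which differs from the build of the files and gave names alone. A match was by symbol or synonym, chromosome and a span within 1.5-fold. Of the genes nearest in pattern, none has a name. The first 2 are printed for the RBCS mean and the first 4 for RCA. CAB1R, CAB2R, PCNA and LSI2 were named after their values were seen. LOC_Os12g17600 matched a small subunit record on chromosome 12. The same record was found for LOC_Os12g19381 and LOC_Os12g19470, but its span was 0.07 and 0.52 times theirs. The activase record on chromosome 11 had 1.57 times the span of RCA. These 3 members therefore failed the span check, and the member names rest on the list of identifiers. The 4 bisulfite samples were not analysed here.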

Additional observations from a re-analysis of the deposited data

How the results depend on the processing

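Of the alternatives to the edgeR fit, no filter called 29 genes and DESeq2 called 502, and the others called 0. DESeq2 put LOC_Os12g17600 (-1.82), LOC_Os12g19381 (-1.35) and LOC_Os12g19470 (-1.32) past the threshold, and FBPase (-0.94). The calls of the 3 copies thus rest on the choice of test, and the cause was not tested. Leaving out 1 library gave 0 edgeR calls each time (823 to 4048 genes at an unadjusted p under 0.05), -1.07 to -2.32 for LOC_Os12g17600, -1.14 to -1.55 for LOC_Os12g19381, -1.15 to -1.48 for LOC_Os12g19470, -0.20 to -1.26 for RCA, -1.0 to -1.77 for the summed RBCS level, 0.46 to 1.14 for the log2 ratio of RCA to RBCS and -0.77 to -1.17 for the Calvin cycle median. Share differences reversed without CK replicate 2, in ranges of -13.8 to 0.53 percentage points for LOC_Os12g17600, -0.48 to 11.1 for LOC_Os12g19381 and -0.047 to 2.67 for LOC_Os12g19470. With 1 library in a group, that library is assumed to vary like the others.

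Same-numbered libraries deviated from their group means with a correlation of -0.141 across genes, and the labels do not say what the numbers share. With the replicate block edgeR called 0 genes, and the log2 fold changes were -1.75 for LOC_Os12g17600, -1.36 for LOC_Os12g19381, -1.32 for LOC_Os12g19470 and -0.72 for RCA. The crossed pairing, chosen after seeing the data, also called 0 genes, with 2922 at an unadjusted p under 0.05 against 2286 without a block. Depth does not limit these abundant genes, whose precision is set by the spread of 2 libraries a group.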
